A study of Mus musculus with 7 samples.

Results

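The transcription factor genes of the NFI family (Nfia, Nfib, Nfic and Nfix), of the RUNX family with its partner (Runx1, Runx2, Runx3 and Cbfb) and of the C/EBP pair Cebpb and Cebpd were followed in mouse embryonic fibroblasts (MEFs) and mouse embryonic stem cells (mESCs). These 10 genes were taken by symbol from a table of 55484 genes, and all 10 were among the 16580 genes with enough counts to be tested. The study compared sequencing platforms for ATAC-seq with MEFs and mESCs as its cell types. It used RNA levels to re-rank factors whose motifs were enriched in regions more accessible in mESCs, or whose footprints gave higher activity there. RNA was sequenced in 4 MEF and 3 mESC libraries, and the study says that its RNA data were already present in the laboratory. Both cell types were of C57/Bl6 background, which the study states under its ATAC-seq methods, with no treatment in the labels. MEFs are primary cells grown out of embryos and are a mixed connective tissue population, while mESCs are a pluripotent culture derived from the blastocyst. Each library was made from poly(A)-primed RNA with a bias to the 3′ end and with a unique molecular identifier on each molecule, so a count stands for a molecule. Totals ran from 6528643 to 11441278 counts, and libraries are named here by cell type and by their place in falling order of total.

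NFI proteins bind the palindrome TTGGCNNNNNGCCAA as dimers and are known from connective tissue, lung, muscle and brain development. RUNX proteins bind the core TGTGGT through their Runt domain, and CBFB, which makes no contact with DNA itself, strengthens that binding. RUNX1 is best known from blood, RUNX2 from bone and RUNX3 from T cells and sensory neurons. C/EBP beta and delta are basic leucine zipper proteins that act early in fat cell formation and in the acute phase response.

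The labelled cell types were checked first, because the extraction text in the labels speaks of blood stem cells of young and aged mice. The summed level of 10 pluripotency genes was 38.7 to 43.0 CPM (a count divided by the library total and scaled to 1000000) in MEFs and 3830 to 3975 CPM in mESCs, and all 10 genes were apart between the cell types. The sum of 10 fibroblast genes was 23044 to 37958 CPM in MEFs and 205 to 254 CPM in mESCs, with all 10 genes apart in the other direction. Genes of other cell types were summed in the same way. The sum of 6 blood stem cell genes was 12.6 to 23.2 CPM in MEFs and 5.86 to 9.38 CPM in mESCs. Most of it in MEFs was Mecom, at 6.43 to 12.7 CPM there, which was called lower in mESCs, while Tal1 was at or under the floor of 3 counts in every MEF library and Cd48 in every mESC library. Blood and macrophage genes summed to 10.4 to 38.6 and 77.9 to 90.2 CPM, of which Laptm5 alone made up 59.2 to 68.6 CPM in mESCs, while the pan-leukocyte gene Ptprc reached at most 1.85 CPM in MEFs and 0.124 CPM in mESCs. Bone and cartilage genes summed to 17.4 to 48.4 and 4.10 to 7.50 CPM, with Bglap at 0 in all 7 libraries. Sums were 0.545 to 27.2 and 4.69 to 7.32 CPM for fat cells, with Adipoq and Lep at or under the floor in every library. Those of the squamous epithelium genes Krt5, Krt14 and Trp63 were 74.6 to 95.5 and 85.3 to 106 CPM. Endothelial genes gave 15.3 to 21.5 and 35.3 to 59.9 CPM, glial genes 7.78 to 14.2 and 14.0 to 14.5 CPM, and muscle genes 19.8 to 28.3 and 15.3 to 36.6 CPM. In bulk RNA, fewer cells of a type and less RNA per cell cannot be told apart.

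The promoters of the 3 RUNX genes are shown because these genes parted most within 1 family. The windows are the 250 bases before the RefSeq start (GRCm38.p6), read 5′ to 3′ on the strand of the gene, at chr16:92826075-92826324 (minus) for the distal promoter of Runx1, chr17:44814628-44814877 (minus) for Runx2 and chr4:135120395-135120644 (plus) for the distal promoter of Runx3. Capitals mark a RUNX core, an short NFI site or a C/EBP match.
Runx1: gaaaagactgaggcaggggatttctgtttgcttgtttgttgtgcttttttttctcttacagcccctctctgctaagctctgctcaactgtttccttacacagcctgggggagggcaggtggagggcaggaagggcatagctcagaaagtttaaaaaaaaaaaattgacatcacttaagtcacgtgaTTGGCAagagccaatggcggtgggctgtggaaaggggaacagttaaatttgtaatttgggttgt
Runx2: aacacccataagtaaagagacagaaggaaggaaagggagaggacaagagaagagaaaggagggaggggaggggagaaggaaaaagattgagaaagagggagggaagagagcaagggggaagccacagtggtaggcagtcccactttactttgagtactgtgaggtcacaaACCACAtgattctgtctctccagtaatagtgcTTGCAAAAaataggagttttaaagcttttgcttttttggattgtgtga
Runx3: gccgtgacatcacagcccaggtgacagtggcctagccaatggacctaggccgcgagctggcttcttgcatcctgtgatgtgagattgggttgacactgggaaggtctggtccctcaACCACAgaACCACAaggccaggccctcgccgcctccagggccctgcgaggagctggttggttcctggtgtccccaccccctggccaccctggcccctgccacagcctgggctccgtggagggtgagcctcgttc
The letters searched on both strands were the NFI palindrome above, the short NFI site TTGGCA, the RUNX core TGTGGT and the C/EBP pattern TTGCNNAA. The Runx2 window held 1 RUNX core, written ACCACA on this strand, 80 bases before the start, and 1 C/EBP match 48 bases before it. The Runx3 window held 2 RUNX cores, 134 and 126 bases before the start, and the Runx1 window held 1 short NFI site 64 bases before it. Among 32851 promoter windows of the same length, 14.0% held a RUNX core, 12.3% an short NFI site, 9.56% a C/EBP match and 0.0365% the full NFI palindrome. Promoter windows matched 8 of the 10 genes, and Nfib and Cebpd had none. Of the other windows of these genes, 1 of Nfix held a RUNX core, and those of Nfia, Nfic, Cbfb and Cebpb and the proximal ones of Runx1 and Runx3 held no match.

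Of the 10 factors, 9 were lower in mESCs than in MEFs, 0 were higher and Runx3 was not called (unadjusted p = 0.176), in the quasi-likelihood test of edgeR, with Benjamini-Hochberg adjustment over all tested genes and a threshold of 0.05. Among all tested genes, 25.0% were called lower and 22.8% higher. All 9 also had every mESC library below every MEF library, as 20.8% of tested genes did. Their mean plain CPM in mESCs was 1.39% (Runx2) to 38.4% (Cbfb) of that in MEFs, and the largest adjusted p was 1.05e-04 (edgeR). The median log2 fold change of the 10 factors was -3.00, beside 0.04 for all tested genes. The study expected key mESC factors to be robustly expressed in mESCs, above 2 log2CPM, and higher than in MEFs. Taken here as a level for both cell types, 2 log2CPM was passed on average by all 10 factors in MEFs. Runx3 passed it only narrowly in MEFs, at 2.03 ± 0.66 log2CPM (SD, n = 4). In mESCs 9 factors passed it, Runx2 being the exception. Cebpd passed it narrowly there, at 2.20 ± 0.28 log2CPM (SD, n = 3). The study's text describes its RNA replicates as biological and names fewer MEF replicates than the libraries analysed here. The labels do not tie the libraries to separate cultures or embryos, so p-values measure the spread between these libraries, which may be technical.

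**Figure D1:**
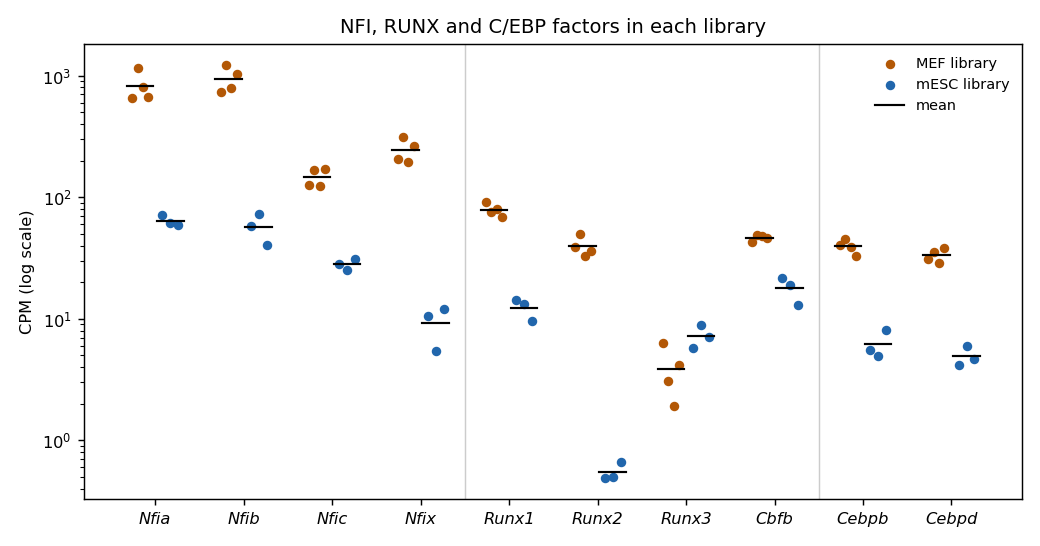
Level of each factor in CPM on a log axis, with 1 point per library, 4 MEF and 3 mESC libraries, and a bar at the mean of each cell type. Points of the cell types are apart for 9 factors and overlap for Runx3, and Runx2 in mESCs lies lowest, at 0.488 to 0.670 CPM.

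Per kilobase of exon, the NFI genes summed to 194 ± 44.6 CPM in MEFs (SD, n = 4), above 35.1 ± 3.08 CPM for the C/EBP pair and 11.8 ± 1.32 CPM for the RUNX genes. The C/EBP pair and the RUNX genes changed places on plain CPM in MEFs, at 72.8 ± 5.26 and 122 ± 12.8 CPM. On plain CPM the NFI genes summed to 2158 ± 507 CPM (SD, n = 4) there and to 159 ± 14.4 CPM (SD, n = 3) in mESCs, or 7.36% of the MEF level. All 4 were called lower in mESCs, by a fitted 6.33-fold to 32.0-fold. Fitted changes also carry a scaling between libraries (TMM), which the percentages of plain CPM do not.

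Nfib, needed for lung and brain maturation, lies at chr4:82290173-82705750 on the minus strand (GENCODE M21, GRCm38, as for all gene positions given here). It stood at 732, 1230.1, 789 and 1026 CPM in the 4 MEF libraries in falling order of total, and at 58.2, 73.0 and 40.2 CPM in the mESC libraries. Every mESC value lay far below the lowest MEF value. The log2 fold change was -4.32 ± 0.27 (SE, adjusted p = 6.06e-07, edgeR). Nfia, known from the switch to glia formation in the spinal cord, lies at chr4:97772734-98118874 on the plus strand. Its level was 650.1, 1161, 805 and 672 CPM in MEFs and 72.0, 61.4 and 59.4 CPM in mESCs. The mESC libraries lay close together and far below the MEF range, with a log2 fold change of -3.96 ± 0.24 (SE, adjusted p = 4.70e-07, edgeR).

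Nfix, known from muscle development, lies at chr8:84699876-84800344 on the minus strand and was the NFI gene with the lowest remaining share. It had 204, 315 and 194 CPM in the first 3 MEF libraries and 265 CPM in the last, against 10.5, 5.46 and 11.9 CPM in mESCs. That left 3.80% of the MEF level in plain CPM, while the fitted log2 fold change was -5.00 ± 0.31 (SE, adjusted p = 4.76e-07, edgeR). Nfic, known for its part in tooth root formation, lies at chr10:81396186-81455635 on the minus strand. MEF libraries held 125, 168, 124 and 171 CPM of it, and mESC libraries 28.3, 25.3 and 30.8 CPM. Nfic kept the highest share of the family, 19.2% of the MEF level in plain CPM. Its fitted log2 fold change was -2.66 ± 0.18 (SE, adjusted p = 1.02e-06, edgeR).

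Members of the family therefore differed unequally. The log2 ratio of Nfib to Nfic within a library, which does not depend on scaling, was 2.55, 2.87, 2.67 and 2.58 in MEFs and 1.04, 1.52 and 0.38 in mESCs. All MEF ratios were above all mESC ratios. The difference of the means was -1.69 (mESC minus MEF), with an exact permutation p of 0.0286, two-sided on the size of the difference, and 0.0429 after adjustment over 3 ratios. That p is the smallest that 4 against 3 libraries allow. Doubling the one-sided exact p, a choice made after seeing the data, gave 0.0571 for this ratio. Divided by exon length, Nfic made up 11.6% ± 1.56 of the family in MEFs (SD, n = 4) and 28.0% ± 3.74 in mESCs (SD, n = 3), while Nfix went from 17.2% ± 1.47 to 8.33% ± 3.19. On plain CPM, the share of Nfic was 6.91% ± 0.95 and 17.9% ± 3.32. Exon length is a rough divisor for libraries with a bias to the 3′ end.

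Within MEFs, Nfib, Nfic and Nfix shared a pattern over libraries. The MEF libraries of 9176467 and 6528643 counts, listed second and last, were the highest for all 3 genes, while Nfia was highest in the former. Of 10 fibroblast genes, 7 were also highest in these 2 libraries, as were 25.0% of all tested genes, while Vim was lowest in them and Col1a1 and Thy1 showed neither order. Among the 7, Dcn, for the proteoglycan decorin, stood at 110, 425, 133 and 503 CPM. Lum, for lumican, stood at 44.0, 106, 43.1 and 134 CPM, and the collagen gene Col3a1 at 1404, 3366, 1748 and 3457 CPM. The part of these libraries' make-up in the NFI levels was not tested. Leaving out any 1 library kept all 4 NFI genes past the threshold and lower in mESCs.

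The RUNX genes gave 1 member each of 3 kinds. Runx1 was lower in mESCs but still measured, Runx2 was near the floor, and Runx3 was low in both cell types and not called.

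Runx2, the master regulator of bone-forming cells, lies at chr17:44495987-44814797 on the minus strand. It stood at 39.2, 50.1, 33.0 and 36.3 CPM in MEFs and at 0.488, 0.496 and 0.670 CPM in mESCs, which were 4, 4 and 5 counts. The groups were far apart, and the mESC libraries lay just above the floor of 3 counts. The log2 fold change was -6.41 ± 0.31 (SE, adjusted p = 1.14e-07, edgeR), the largest size among the 10 factors. Of its exon bases, 5.87% lie opposite the antisense gene Runx2os1, which had 3.30 ± 2.52 CPM in MEFs (SD, n = 4) and 0.407 ± 0.705 CPM in mESCs (SD, n = 3). The shared bases lie 239858 genomic bases from the 3′ end of Runx2. The strand setting of the counting is not given in the sources used here, so reads from the shared bases cannot be told apart.

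Runx1, required for the first blood stem cells, lies at chr16:92601466-92826149 on the minus strand. MEFs held 90.7, 76.1, 79.7 and 68.2 CPM of it and mESCs 14.2, 13.3 and 9.51 CPM. The mESC libraries lay well below every MEF library but far above the floor. Its log2 fold change was -2.96 ± 0.22 (SE, adjusted p = 1.65e-06, edgeR). Counts per gene do not tell its distal from its proximal promoter.

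Runx3, at chr4:135120652-135177990 on the plus strand, had 6.29, 3.05, 1.91 and 4.14 CPM in MEFs, or 72, 28, 14 and 27 counts. In mESCs it had 5.74, 8.94 and 7.10 CPM, or 47, 72 and 53 counts. The highest MEF library lay above the lowest mESC library, so the groups overlapped. The fitted log2 fold change was 0.63 ± 0.43 (SE), with an adjusted p of 0.263 in edgeR's quasi-likelihood test, and its spread over MEF libraries was the widest of the 10 factors, at a coefficient of variation of 48.5%.

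Cbfb, the shared partner, lies at chr8:105170674-105217989 on the plus strand and differed least among the 9. It was even over MEFs, at 42.7, 49.0, 47.9 and 46.6 CPM, and stood at 21.7, 19.0 and 12.9 CPM in mESCs. The 2 ranges were apart, with a log2 fold change of -1.66 ± 0.22 (SE, adjusted p = 1.05e-04, edgeR). The log2 ratio of Runx1 to Cbfb was 1.09, 0.63, 0.74 and 0.55 in MEFs and -0.62, -0.51 and -0.43 in mESCs. It was above 0 in every MEF library and below 0 in every mESC library. The means differed by -1.27 (mESC minus MEF), with an exact permutation p of 0.0286, adjusted to 0.0429 over the 3 ratios, and of 0.0571 when the one-sided p was doubled.

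The make-up of the RUNX genes shifted with cell type. Runx1 to Runx3 summed to 122 ± 12.8 CPM in MEFs (SD, n = 4) and 20.1 ± 2.72 CPM in mESCs (SD, n = 3), or 16.5%. Per kilobase of exon, Runx2 made up 38.0% ± 5.18 of the sum in MEFs and 2.51% ± 0.72 in mESCs. Runx3 made up 6.43% ± 2.71 in MEFs and 57.0% ± 7.63 in mESCs, and on plain CPM 3.12% ± 1.34 and 36.2% ± 7.02. The order of Runx1 and Runx3 in mESCs thus turned with the scale, since Runx1 held 61.0% ± 7.53 on plain CPM and 40.5% ± 7.90 per kilobase. As for the NFI genes, exon length is a rough divisor for libraries with a bias to the 3′ end. These shares are a description with no test.

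**Figure D2:**
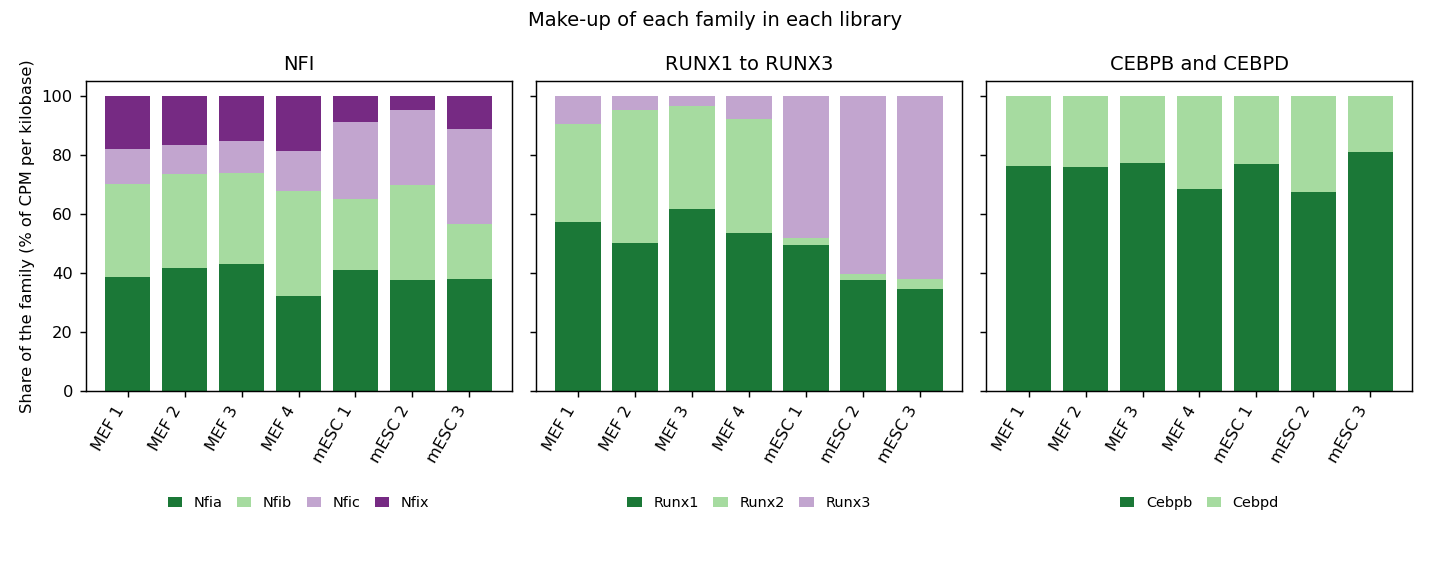
Share of each gene in the summed CPM per kilobase of exon of its family, in %, with 1 stacked bar per library and libraries numbered in falling order of total within a cell type. The Runx3 segment is 3.56% to 9.51% in MEFs and 48.2% to 62.1% in mESCs, and the Cebpb segment spans 67.5% to 81.0% over all libraries. Exon length is a rough divisor here, and on plain CPM the mean share of Runx3 in mESCs was 36.2%.

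Cebpb and Cebpd were both lower in mESCs, by a like amount. Cebpb, at chr2:167688915-167690418 on the plus strand, is a gene of 1 exon whose product acts in fat cells, macrophages and liver. It had 40.3, 45.0, 39.2 and 33.1 CPM in MEFs and 5.49, 4.96 and 8.04 CPM in mESCs. No library of either group came near the other range, and the log2 fold change was -2.96 ± 0.25 (SE, adjusted p = 4.27e-06, edgeR). The counts do not resolve its protein isoforms, which arise from 1 transcript. Cebpd, at chr16:15887286-15891031 on the plus strand, also has 1 exon. MEFs had 31.2, 35.4, 29.0 and 38.1 CPM and mESCs 4.15, 5.96 and 4.69 CPM. The groups were again apart, with a log2 fold change of -3.03 ± 0.24 (SE, adjusted p = 2.67e-06, edgeR).

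The log2 ratio of Cebpb to Cebpd averaged 0.24 ± 0.30 in MEFs (SD, n = 4) and 0.30 ± 0.52 in mESCs (SD, n = 3). The difference of 0.07 was smaller than the spread in either cell type, with an exact permutation p of 0.943, and adjustment over the 3 ratios left it at 0.943. Both genes overlap others on the opposite strand. Tmem189 covers 20.7% of the exon bases of Cebpb and had 15.6 ± 3.92 CPM in MEFs and 16.7 ± 2.79 CPM in mESCs. Spidr covers 15.0% of those of Cebpd and had 6.68 ± 2.85 and 13.4 ± 3.83 CPM. Neither was called in either direction (adjusted p = 0.615 and 0.130, edgeR). Both overlapping genes stood above Cebpb and Cebpd in mESCs, which had 6.17 ± 1.64 and 4.93 ± 0.93 CPM there (SD, n = 3). The shared bases lie much nearer the 3′ end than in Runx2, 596 bases from that of Cebpb and 1246 bases from that of Cebpd. As for Runx2, the strand setting is not given, so reads from the shared bases cannot be told apart.

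**Figure D3:**
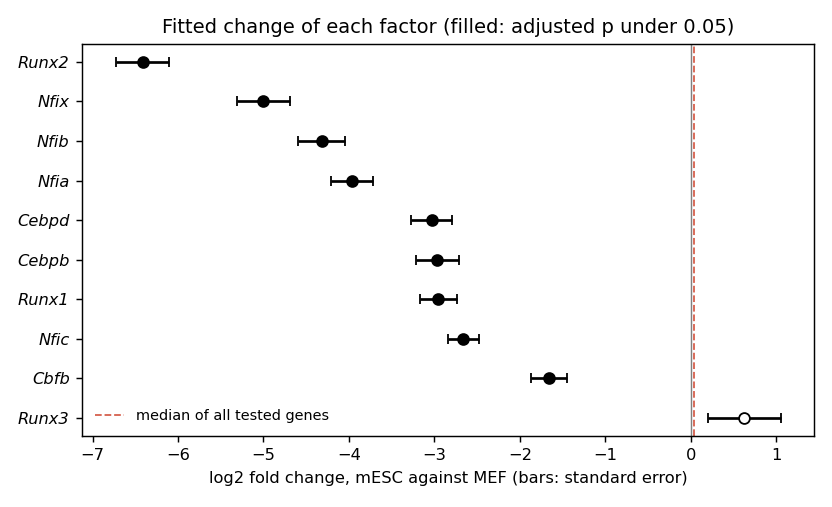
Fitted log2 fold change of each factor, mESC against MEF, with bars of 1 SE from edgeR. Of the factors, 9 lie between -6.41 (Runx2) and -1.66 (Cbfb), and Runx3 lies at 0.63.

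The level left in mESCs was compared with that of the fibroblast genes. Fibroblast genes kept 0.546% (Col1a2) to 19.9% (Lum) of their MEF level in mESCs, with a median of 1.48%. Runx2 at 1.39% and Nfix at 3.80% lay in the lower range of the factors, Nfib and Nfia followed at 6.05% and 7.82%, and Cebpd, Cebpb, Runx1 and Nfic lay between 14.8% and 19.2%. In the opposite direction, pluripotency genes stood in MEFs at 0.330% to 3.66% of their mESC level. The part of fibroblast RNA in the levels left in mESCs was not tested.

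**Figure D4:**
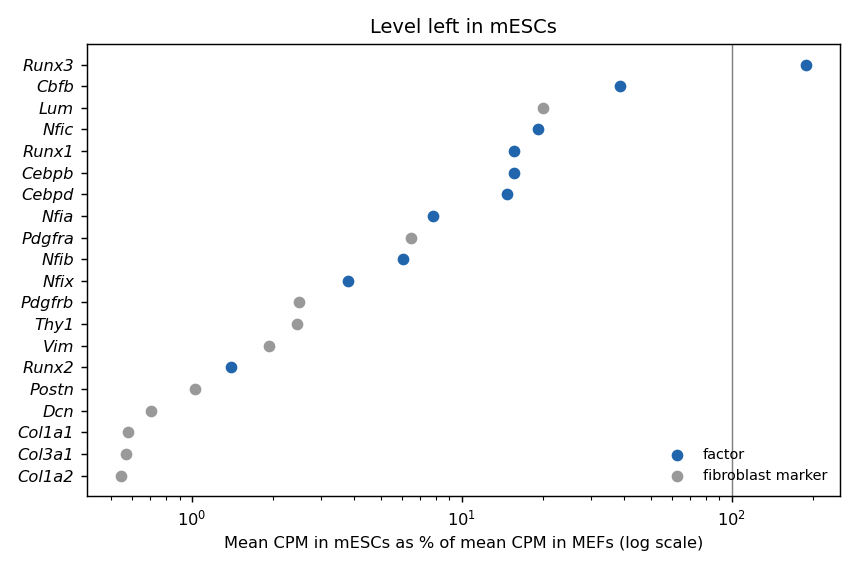
Mean CPM in mESCs as a percentage of mean CPM in MEFs, on a log axis, for the 10 factors and 10 fibroblast genes. Fibroblast genes have a median of 1.48%, Runx2 lies at 1.39%, Cbfb at 38.4%, and Runx3 at 189% with overlapping groups.

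Known targets, partners and regulators of each family were counted from lists that were not trimmed by how the genes moved. The lists were chosen with earlier results of these data known, so their counts are a description and no test of the families. Among genes linked to NFI factors, 5 of 7 tested were lower in mESCs, 1 was higher and Gfap was not tested. Of all tested genes, 25.0% were called lower and 22.8% higher. Sox9, a regulator of cartilage and of stem cells in many tissues, had 181 ± 28.2 CPM in MEFs (SD, n = 4) and 3.17 ± 0.34 CPM in mESCs (SD, n = 3), a log2 fold change of -6.11. Fabp7, a fatty acid binding protein of radial glia, had 0 counts in every mESC library, so that it was at least 5.82-fold lower there against a floor of 3 counts per library. Hes1, a Notch target, was lower by a smaller amount, from 449 ± 16.5 to 282 ± 19.9 CPM. Ezh2, the methyltransferase of Polycomb complex 2, was the gene that was higher, from 61.9 ± 15.4 to 188 ± 17.6 CPM. The median log2 fold change of this list was -2.24, also with Fabp7 at its bound.

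Among RUNX cofactors, 2 of 10 were lower, 3 were higher and 5 were not called, beside 25.0% lower and 22.8% higher over all tested genes, with a median log2 fold change of 0.28. Ets1, which binds DNA together with RUNX1, had a log2 fold change of -4.01, and Runx1t1, the partner gene of RUNX1 in a leukaemia fusion, one of -3.28. Tle4, a Groucho corepressor, was higher, at 19.4 ± 5.10 CPM in MEFs and 207 ± 40.4 CPM in mESCs, as was the corepressor scaffold gene Sin3a, with a log2 fold change of 1.32.

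Skeletal genes linked to RUNX2 were also mixed, with 4 of 8 tested lower, 2 higher and 2 not called. That stands beside 25.0% lower and 22.8% higher over all tested genes, and the list's median was -1.94. The bone matrix gene Ibsp stood at 8.65, 23.5, 13.7 and 43.2 CPM in MEFs and was at or under 3 counts in every mESC library. Col1a1, the main collagen of bone and of fibroblasts, had a log2 fold change of -7.72. Alpl, tissue-nonspecific alkaline phosphatase and also a textbook marker of pluripotent cells, went the other way, with 0.669 ± 0.42 CPM in MEFs and 59.0 ± 9.23 CPM in mESCs. Spp1, for osteopontin, stood at 61.6 ± 5.65 and 870 ± 84.3 CPM and was higher as well. Sp7, Bglap, Bglap2, Mmp13 and Phex had too few counts to be tested. Of 7 blood genes linked to RUNX factors, 3 were tested and 0 were called in either direction by edgeR, at an unadjusted p under 0.05 or by DESeq2, with Csf1r at 13.6 ± 6.24 CPM in MEFs and 13.6 ± 3.29 CPM in mESCs. Spi1 and Mpo, the other 2, were at 1.08 ± 1.10 and 1.05 ± 0.73 CPM in MEFs and at 1.16 ± 0.69 and 2.36 ± 0.44 CPM in mESCs.

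Acute phase and cytokine genes linked to C/EBP factors were lower in 7 of 8 tested and higher in 1, with a median log2 fold change of -4.98. Over all tested genes, 25.0% were called lower and 22.8% higher. Ptx3, a secreted pattern receptor, had 390 ± 121 CPM in MEFs (SD, n = 4) and 2.76 ± 0.91 CPM in mESCs (SD, n = 3). Ccl2, a monocyte chemokine, had 159 ± 61.3 and 0.671 ± 0.12 CPM. The complement gene C3 was lower as well, at a log2 fold change of -3.89. Saa3, an acute phase serum amyloid gene, was the gene that was higher, from 1.96 ± 1.37 to 31.8 ± 4.48 CPM. Fat cell genes were lower in 3 of 5 tested, beside the 25.0% over all tested genes, with a median of -1.95. Lpl, lipoprotein lipase, had a log2 fold change of -3.31 and Fabp4, a fatty acid binding protein, one of -4.36, while Pparg, Adipoq and Lep had too few counts to be tested. Cd36 and Plin1 were not called, and both had 1 library far above the rest of its group.

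Of the other genes of the C/EBP family and its partners, Cebpa and Cebpg were lower, Cebpe was not tested, and Ddit3 and Atf4 were not called (adjusted p = 0.0510 and 0.169, edgeR). DESeq2 also called Ddit3 lower, and it called Cebpe, which the filter before edgeR had left out, higher. Cebpa was low in MEFs too, at 2.63 ± 1.03 CPM (SD, n = 4), and Cebpg had 59.4 ± 6.01 CPM in MEFs and 31.5 ± 8.42 CPM in mESCs. Upstream regulators were lower in 4 of 8 and higher in 0 by edgeR, beside 25.0% and 22.8% of all tested genes. Their median was -0.97, and at an unadjusted p under 0.05 Trib1 was higher. DESeq2 also called 0 higher. Trib2, a pseudokinase that directs C/EBP alpha to degradation, had 163 ± 17.2 CPM in MEFs and 5.79 ± 1.88 CPM in mESCs, and Il6st, the gp130 receptor chain, had a log2 fold change of -2.60. Il6ra and Trib1, with the highest fitted values of the list, were not called (adjusted p = 0.530 and 0.0846, edgeR).

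**Figure D5:**
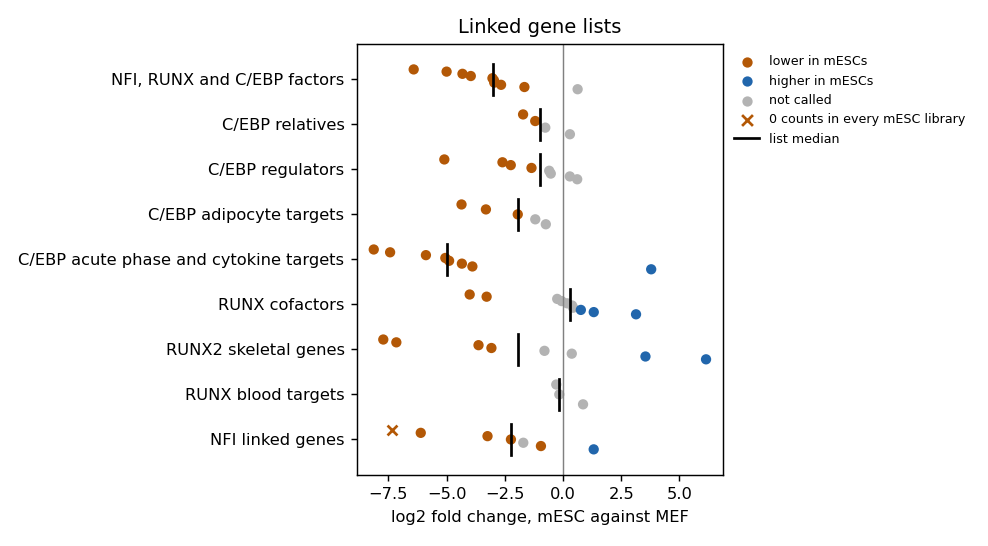
Fitted log2 fold change, mESC against MEF, of every tested gene of each list, with 1 point per gene coloured by its call and a line at the list's median. The 10 factors have a median of -3.00, acute phase and cytokine genes one of -4.98, and RUNX cofactors one of 0.28.

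For the most abundant gene of each family in MEFs, the 3 genes nearest in profile over the 7 libraries were found by Euclidean distance of log2CPM values, each gene centred on its mean. Nearest to Nfib were Hmcn1, a matrix protein gene, at 0.353, the imprinted gene Ndn at 0.426 and the protocadherin gene Pcdh19 at 0.475. Nucb2, Abracl and Tmem263 were nearest to Runx1, at 0.311, 0.341 and 0.380. Spry1, an inhibitor of growth factor signalling, lay at 0.395 from Cebpb, Tnfaip2 at 0.428 and Slc6a17 at 0.436. These points share libraries and depth. The distance also takes in the difference between the cell types. Nfib had a fitted log2 fold change of -4.32, and Hmcn1, Ndn and Pcdh19 had -4.64, -4.17 and -4.35. Whether genes near each other are regulated together was not tested. Slc6a17 had 1, 1 and 3 counts in mESCs, at or under the floor, so its distance rests on few counts. Its fitted log2 fold change was -3.82.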

How the data were processed

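RNA-seq counts of 4 MEF and 3 mESC libraries were used, and ATAC-seq data were not used here. The authors aligned reads to mm10 with STAR (2.4.2a in the submitters' processing notes, another version in the study's methods), removed duplicate molecules by their identifiers (Je), assigned uniquely mapping reads to exons by featureCounts and deposited whole-number counts without normalization. The annotation release and strand setting are not given in the sources used here. Of the rows, 26 had symbols changed to dates (0.249% of counts), stayed in the totals and are not reported, and 0 per-sample columns went unused. Column names give the cell type, a first number that is the same in every column, a letter and a last number not stated to be the sample's. The letter is not explained. It is O in all MEF columns and Y in all mESC columns, so whatever it stands for cannot be told apart from cell type. No sort or gate is stated for the RNA libraries. Totals were 6528643 to 11441278 counts, so the floor of 3 counts was 0.262 to 0.460 CPM. Floors cover counting error only.

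CPM were computed over library totals. All genes that passed filterByExpr were fitted in R 4.3.3 by the quasi-likelihood test of edgeR 4.0.16 with TMM scaling and no covariate (limma 3.58.1 loaded), and the call was a Benjamini-Hochberg adjusted p under 0.05. The log2CPM values used a prior count of 2. TMM shifted the median of all log2 fold changes by 0.28. Ratios within a library (counts plus 0.5) went through an exact permutation test over 35 assignments, with 0.0286 as the smallest p. The code was tested on simulated data. Alternatives were DESeq2 1.42.0, other scalings and filters, a test against a fold change of 2, each library left out, shares per kilobase and another pseudocount.

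All 10 factors are named. From each list of linked genes, the 2 tested genes with the highest and the 2 with the lowest fitted fold change are named, and other genes only as calls, as untested, as markers or, for Dcn, Lum and Col3a1, after their values were seen. Members and lists were chosen with earlier results of these data known. The sum of blood stem cell genes leaves out 1 gene that is not reported here.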

Additional observations from a re-analysis of the deposited data

Results flagged for a closer look

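In groups of 4 to 10 samples, a value was marked where the gap between 1 library and its nearest neighbour took up most of the group's range (Dixon's limit). Only MEFs, with 4 libraries, could be tested. Of 61 results, 5 were marked, and chance marks about 1 in 20, or 3.05. Plin1, a lipid droplet gene, stood at 26.8 CPM in the MEF library of 7312679 counts and at 0.436 to 1.23 CPM in the others. Ptx3 was low in the MEF library of 6528643 counts, at 209.5 CPM beside 425 to 463 CPM. Spry1 was high in the MEF library of 11441278 counts, at 42.5 CPM beside 37.3 to 38.2 CPM. The log2 ratio of Cebpb to Cebpd was -0.20 in the MEF library of 6528643 counts and 0.35 to 0.44 in the others, and the share of Cebpb in the pair, on plain CPM, was 46.5% there and 56.0% to 57.5% in the others. These last 2 values rest on the same counts.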

How the results depend on the processing

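Over 13 alternatives to the fit (DESeq2, 2 other scalings, 2 filters, a test against a fold change of 2, and each of 7 libraries left out), all 130 values of the 10 factors kept their direction and their side of the threshold, with 9 lower and 0 higher each time. Among all genes, 3785 were called higher and 4153 lower, and the test against a fold change of 2 gave 1714 higher and 2277 lower, a stricter question by construction. Without TMM, 5180 were higher and 3345 lower. The one-sided exact p doubled, chosen after seeing the data, left the differences of the Nfib to Nfic and Runx1 to Cbfb ratios at -1.69 and -1.27 with p = 0.0571. With 1 library left out they were -1.96 to -1.39 and -1.34 to -1.16, with the exact p at 0.100 or 0.0667, the smallest that so few libraries allow. For Cebpb to Cebpd, the range was -0.17 to 0.35, and the sign turned without the MEF library of 6528643 counts (-0.08) or the mESC library of 7462710 counts (-0.17). Per kilobase of exon, differences in family share (mESC minus MEF, percentage points) moved to 16.4 for Nfic, -8.84 for Nfix, -15.1 for Runx1, -35.5 for Runx2 and 50.5 for Runx3. Over TMM-scaled sizes, mean levels moved to 25.2 CPM for Nfic in mESCs and 50.6 CPM for Cbfb in MEFs. No paired analysis was possible because nothing ties the last number of a count column to a labelled sample. Depth limits Runx2 in mESCs, at 4 to 5 counts, and Runx3 in MEFs, at 14 to 72 counts.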
